A study of Mus musculus with 33 samples.

Results

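The neuropeptide genes of the cortex were described in RNA-seq data from the frontal cortex of the mouse. They were Sst, Cort, Npy, Vip, Cck, Crh, Tac1, Penk, Pdyn and Pnoc, taken by gene symbol from the table of expression values. All 10 symbols were found among the 21565 genes of the table, and all 10 passed the filter on low values in every comparison. The study asked how sleep loss changes frontal cortex transcripts and how that response depends on the transcription factor MEF2C.

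Neuropeptides are cut from larger precursor proteins, stored in dense-core vesicles and released during sustained firing, and they act on G-protein-coupled receptors of nearby cells. In the cortex most of them are made by GABAergic interneurons, where somatostatin and the vasoactive intestinal peptide are used to name whole interneuron classes. Cholecystokinin and dynorphin are also made by excitatory neurons. Penk, Pdyn and Tac1 are at the same time defining genes of the projection neurons of the striatum, which lies beneath the frontal cortex.

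All animals were adult male mice on a C57BL/6J background, and 7 groups were used. Wild-type (WT) mice slept freely (control sleep, CS, n = 6), were kept awake for 6 hr (sleep deprivation, SD, n = 7), or had 2 hr of recovery sleep after deprivation (RS, n = 7). By the study's methods RS mice were kept awake for less time than SD mice, so both groups differ in the length of deprivation as well as in recovery. Mef2c f/f mice carry loxP sites around 1 exon of Mef2c and served as controls of the knockout line (CS, n = 4, and SD, n = 3). Mef2c-cKO mice carry the same floxed alleles and a Camk2a-Cre transgene (CS, n = 3, and SD, n = 3). This promoter drives Cre mainly in excitatory forebrain neurons, so interneurons keep Mef2c, except that the study's methods report germline recombination in some Mef2c-cKO mice. In tissue RNA, fewer cells of a type and less RNA per cell cannot be told apart.

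Libraries held 18935045 to 249046089 reads, recovered from the deposited CPM, the reads of a gene scaled to a common library total. Levels are given as CPM divided by a median-of-ratios factor for each library (rescaled CPM). A gene was called where the limma adjusted p was at most 0.05 over all genes tested and the log2 fold change was at least 0.3 in size. No fold was required of interactions. In CPM as deposited all genes together had a median log2 fold change of 0.30 in WT SD and 0.20 in RS, each over CS, and after rescaling 0.04 and 0.02. Log2 fold changes of these 2 comparisons were correlated with transcript GC content (Spearman rho 0.721 and 0.713 across genes, which are not independent). Total Mef2c read levels were 957 to 1727 rescaled CPM in Mef2c-cKO CS and 1080 to 1207 in Mef2c f/f CS, and 1116 to 1500 against 1135 to 1406 in SD. It was not called in either comparison (log2 fold change 0.27 and 0.05). Since 1 exon is deleted in a subset of cells, this total does not check the genotype. Markers of excitatory cortical neurons were present in every group, and 0 of the 10 on that list were at 0.

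Per kilobase of exon sequence, the median over all 33 libraries was highest for Sst, the marker peptide of a large interneuron class, at 126 rescaled CPM per kb. Npy, the gene of neuropeptide Y, followed at 107 and Cck, the gene of cholecystokinin, at 105. Penk, the enkephalin precursor, had 67.9. A gap separated these 4 genes from Tac1, the substance P precursor, at 10.3, and Penk was above Tac1 in 33 of 33 libraries. Vip had 9.30 and Pdyn, the dynorphin precursor, 5.73 rescaled CPM per kb. The lowest were Cort, the gene of the somatostatin relative cortistatin, at 3.96, Crh, the corticotropin-releasing hormone gene, at 2.31, and Pnoc, the nociceptin precursor, at 1.39. Several neighbours in this order did not separate: Sst was above Npy in 19 of 33 libraries, Npy above Cck in 20 and Tac1 above Vip in 18. The order also depends on the length used, the union of all annotated exons. For Cck that is 1305 bases, against 799 for its longest transcript, and for Sst both are 721. Before division by length the medians of Cck (137 rescaled CPM) and Penk (111) were above that of Sst (90.9). The plot of levels by library shows how far single libraries of a group lie apart.

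**Figure D1:**
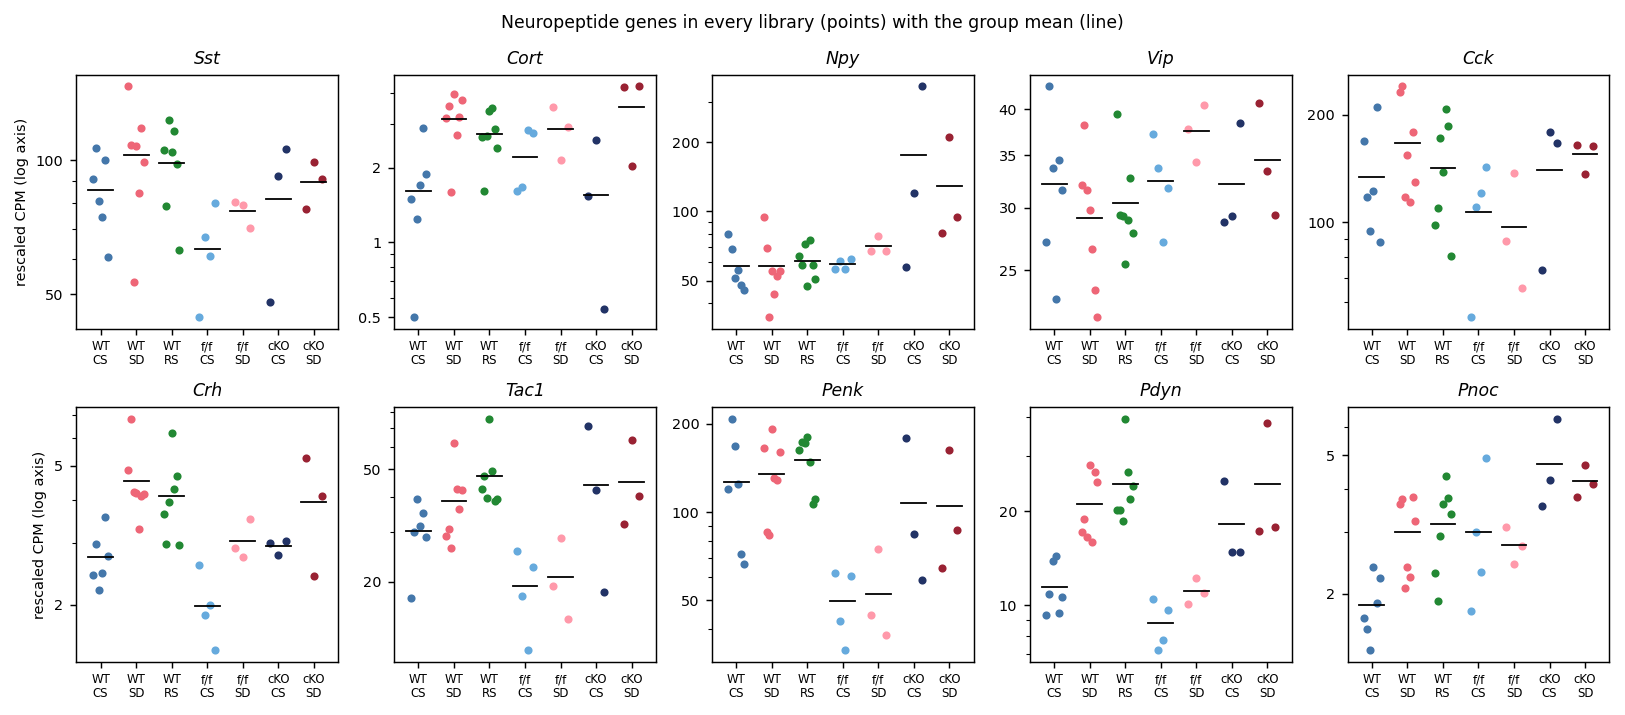
Rescaled CPM (log axes) of the 10 genes in each of the 33 libraries, with a line at each group mean; f/f is Mef2c f/f and cKO is Mef2c-cKO. Pdyn in WT lies between 9.32 and 14.4 in CS and between 16.0 and 28.1 in SD, and a single Mef2c-cKO CS library stands at 351 for Npy.

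The steadiest gene was Vip, whose highest library was 1.96 times its lowest over all groups, and the most variable was Npy with a ratio of 10.1. The ratio was 8.54 for Cort, 6.58 for Tac1, 6.14 for Penk and 5.49 for Pdyn. Cort rests on few reads, 22 to 542 a library, and it reached a CPM of 1 in 31 of the 33 libraries. Penk overlaps A830012C17Rik on the opposite strand. The library kit keeps strand, but the strand setting of the counting is not given in the sources used here, so reads of that gene may be included.

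Promoter sequences of 7 of the 10 genes, 8 windows in all, were matched in RefSeq (GRCm38.p6). The 250 bases before the annotated start were searched on both strands for the cyclic AMP response element TGACGTCA and its 5-base core TGACG, through which activity is known to drive peptide genes. The full element is held by 1.55% of 32851 promoter windows of this length and the core by 17.8%. Of the members, the full element was found in Sst and the core in Sst, Cort, Tac1, Cck and Vip. It was not found in these windows of Npy or at either start of Pdyn, and 0 of the 8 windows held a MEF2 motif, against 2.92% of all windows. Below are the windows of Sst (chr16:23890845-23891094, minus strand), Cort (chr4:149126764-149127013, minus strand), Tac1 (chr6:7554811-7555060, plus strand) and Pdyn (chr2:129699939-129700188, minus strand, the upstream start). The last 3 are shown because those genes were called in a comparison, and Sst because it holds the full element; capitals mark TGACG or its reverse complement CGTCA.
Sst: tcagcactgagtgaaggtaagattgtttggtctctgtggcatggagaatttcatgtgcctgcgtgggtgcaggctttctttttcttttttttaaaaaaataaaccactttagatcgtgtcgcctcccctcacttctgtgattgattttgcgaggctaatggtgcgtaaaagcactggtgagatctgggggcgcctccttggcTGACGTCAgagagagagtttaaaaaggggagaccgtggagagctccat
Cort: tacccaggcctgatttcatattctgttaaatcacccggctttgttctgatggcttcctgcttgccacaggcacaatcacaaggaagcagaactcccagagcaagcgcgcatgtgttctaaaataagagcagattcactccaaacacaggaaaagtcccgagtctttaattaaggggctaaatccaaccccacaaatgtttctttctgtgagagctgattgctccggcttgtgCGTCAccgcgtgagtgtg
Tac1: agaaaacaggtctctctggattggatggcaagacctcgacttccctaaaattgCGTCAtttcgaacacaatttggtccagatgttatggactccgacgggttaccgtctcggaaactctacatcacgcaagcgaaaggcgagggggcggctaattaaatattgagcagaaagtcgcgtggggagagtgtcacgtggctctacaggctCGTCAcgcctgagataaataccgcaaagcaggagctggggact
Pdyn: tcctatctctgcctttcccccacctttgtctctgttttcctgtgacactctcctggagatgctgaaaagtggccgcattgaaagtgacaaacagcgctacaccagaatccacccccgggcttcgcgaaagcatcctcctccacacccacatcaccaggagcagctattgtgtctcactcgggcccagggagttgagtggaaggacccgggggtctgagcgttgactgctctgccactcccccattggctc
The windows of Crh, Penk and Pnoc were not in the table. A match in letters is a description and not a measured site, and sequence outside these windows was not searched.

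Pdyn rose most clearly with sleep loss in WT mice, and Crh, Cort and Pnoc, 3 genes of low level, were also called higher. The rise of Cort was lost after a correction for GC content and length. With the replicate number as a block only Pdyn stayed called in SD. The major interneuron peptides Sst, Npy and Vip passed the test in neither SD nor RS. From CS to SD, 4 of the 10 genes were called, all higher in SD, where 45.1% of the 12913 genes tested were called and 24.6% were called higher. The share of members is therefore close to that of all genes. The members had a median log2 fold change of 0.32, against 0.04 over all genes tested, with 8 of the 10 positive. In this comparison log2 fold changes followed transcript GC content (Spearman rho 0.721 across genes), and most members are GC-rich. GC content was above that of 6.44% of genes for Vip, 20.8% for Tac1 and 60.5% to 92.3% for the other members. The median of the members was not taken after a correction for GC content.

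Pdyn encodes prodynorphin, the source of the dynorphins that act on the kappa opioid receptor. Its rescaled CPM in the 6 WT CS libraries were 9.32, 9.47, 10.6, 10.8, 13.9 and 14.4. In the 7 SD libraries the lowest was 16.0, the median 18.9 and the highest 28.1, so every SD library lay above every CS library, as was the case for 15.1% of all genes in either direction. The mean went from 11.4 ± 2.18 in CS (± standard deviation, n = 6) to 21.2 ± 5.17 after deprivation (n = 7). This was a log2 fold change of 0.85 (standard error 0.16, limma adjusted p = 0.00167). The call held in each of the 12 alternative fits, with log2 fold changes of 0.67 to 1.11, and in all 13 fits that left out 1 library.

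Crh, the peptide that starts the stress axis and marks a subset of cortical interneurons, was at 2.20 to 3.56 rescaled CPM (median 2.61) in CS and at 3.30 to 6.82 (median 4.19) in SD. Only 1 CS library, at 3.56, reached into the SD range. The mean rose from 2.73 ± 0.488 to 4.52 ± 1.11 (log2 fold change 0.62, standard error 0.14, limma adjusted p = 0.00464). Pnoc, whose product nociceptin acts on an opioid-like receptor, was at 1.38 to 2.39 (median 1.79) in CS and 2.07 to 3.80 (median 3.25) in SD. The groups overlapped, and the mean rose from 1.86 ± 0.384 to 3.02 ± 0.758 (log2 fold change 0.56, standard error 0.15, adjusted p = 0.0106).

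Cort was at 0.50 to 2.89 rescaled CPM (median 1.60) in CS and at 1.59 to 3.95 (median 3.21) in SD. The mean rose from 1.62 ± 0.788 to 3.14 ± 0.794, a log2 fold change of 0.84 (standard error 0.24, limma adjusted p = 0.0125). This result depends on the handling of base composition. After a correction for GC content and transcript length the log2 fold change of Cort was -0.03 (adjusted p = 0.839), and the GC content of its transcript, 58.5%, is above that of 92.3% of the genes in the table. Pdyn, Crh and Pnoc were still called after that correction, at 0.67, 0.38 and 0.39.

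The other 6 genes were not called. Sst was at 60.5 to 106 rescaled CPM in CS and 53.2 to 147 in SD (log2 fold change 0.23, 95% interval -0.19 to 0.64), and it was called without SD replicate 3 (0.37, limma adjusted p = 0.0489). Npy went from a mean of 58.1 ± 13.3 to 57.8 ± 19.5 (log2 fold change -0.04, interval -0.46 to 0.38), but after the GC and length correction it was called lower, at -0.76 (adjusted p = 0.0259). Vip, at 32.1 ± 6.80 and 29.1 ± 5.60, had an interval of -0.45 to 0.18. The intervals were -0.15 to 0.81 for Cck, -0.11 to 0.75 for Tac1 and -0.42 to 0.73 for Penk, so these 3 intervals also hold the changes measured for Pnoc. With CPM as deposited, in which the median of all genes is itself at 0.30, 7 members were called, Sst, Cck and Tac1 among them.

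**Figure D2:**
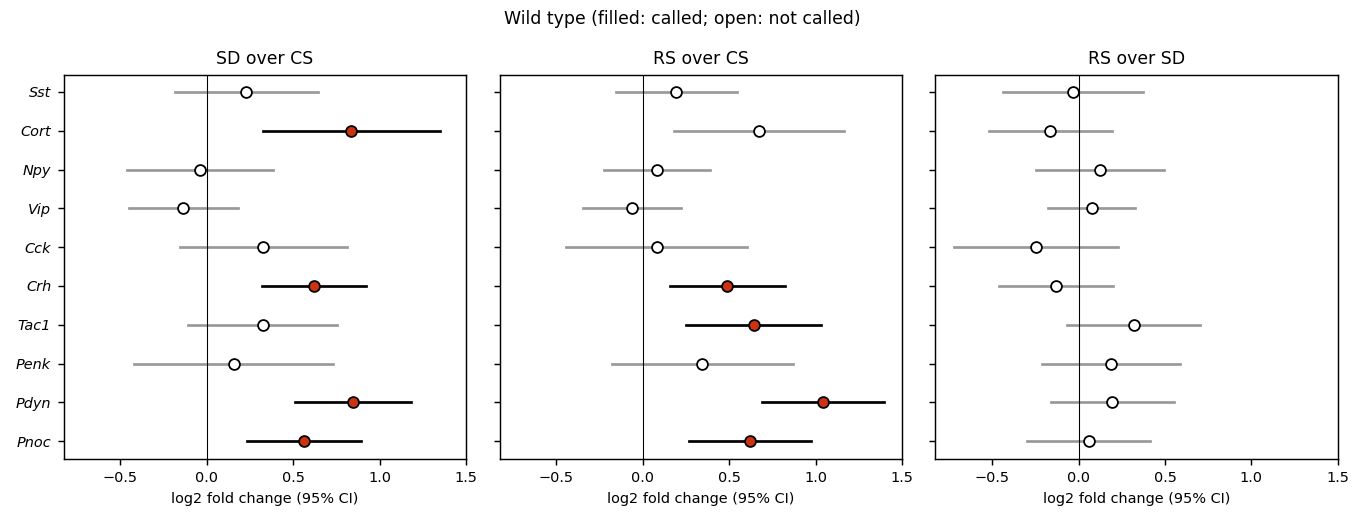
Log2 fold changes of the 10 genes in WT mice with 95% confidence intervals, filled red where the gene was called; panels are SD over CS, RS over CS and RS over SD. Pdyn, at 0.85 and 1.04, is furthest to the right in the first and second panels, and the intervals of all 10 genes cross 0 in the third.

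After recovery sleep Pdyn, Pnoc and Crh were again called higher than in CS, and Tac1 was called in addition. In this comparison 17.5% of 12752 genes were called and 9.28% called higher, and the members' median log2 fold change was 0.42 against 0.02 for all genes. This median, too, was not taken after a correction for GC content. SD and RS were compared with the same 6 CS libraries. Pdyn was at 18.6 to 39.5 rescaled CPM (median 21.9) in RS, again above every CS library. RS and CS did not overlap, in either direction, for 3.72% of all genes. Its mean was 24.5 ± 7.17 (n = 7) and its log2 fold change 1.04 (standard error 0.16, limma adjusted p = 0.0329). Tac1, the precursor of substance P and neurokinin A, was at 17.5 to 39.2 (median 30.8) in CS and 38.7 to 75.5 (median 42.7) in RS, where 1 CS library reached into the RS range. Its mean rose from 30.4 ± 7.32 to 47.5 ± 13.0 (log2 fold change 0.64, standard error 0.18, adjusted p = 0.0391).

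Pnoc was at 3.18 ± 0.859 rescaled CPM in RS (log2 fold change 0.62, adjusted p = 0.0354) and Crh at 4.11 ± 1.13 (0.49, adjusted p = 0.0450). Cort, at 2.73 ± 0.632, narrowly missed the threshold (0.67, adjusted p = 0.0517). The smallest adjusted p of any gene in this comparison was 0.0329, and single libraries decided the calls. Dropping CS replicate 3, or RS replicate 3, 5, 6 or 12, left 0 members and 0 genes called, and Pdyn alone was called if CS replicate 1, CS replicate 2 or RS replicate 4 was dropped. Crh was also lost without CS replicate 4 (0.47, adjusted p = 0.0563), and Crh and Pnoc were not called after the GC and length correction. Over the 13 such fits the log2 fold change of Pdyn stayed between 0.92 and 1.11, with adjusted p of 0.0110 to 0.0749, and that of Tac1 between 0.49 and 0.72.

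Between SD and RS 0 of the 10 genes were called by limma, where 0.0232% of 12921 genes were called. An unadjusted p of at most 0.05 was reached by 0 members and by 5.29% of all genes. The largest differences were those of Tac1, which was higher in RS by 0.32 (95% interval -0.06 to 0.70), and Cck, which was lower by 0.25 on the log2 scale (interval -0.72 to 0.23). Pdyn differed by 0.20 (interval -0.16 to 0.55) and Crh by -0.13 (interval -0.46 to 0.20). A missed threshold does not show that RS levels equal those of SD.

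Some markers of the striatum were also called higher in SD and RS. Of 13 striatal markers tested from CS to SD, 6 were called higher and 0 lower (median log2 fold change 0.48), and from CS to RS 8 were higher and 0 lower (0.69). The summed level of the list was 667 to 1622 rescaled CPM in CS (median 1419.6), 837 to 1661 in SD (median 1117) and 960 to 1668 in RS (median 1395), and none of its genes was at 0 throughout. The median sum was thus lower in SD and RS than in CS. The sums of the 3 groups overlapped. By gene, 11 of the 13 markers had a positive log2 fold change in SD, and also 11 in RS. A lower median sum in SD was not particular to striatal markers. It was also lower for general interneuron markers (1514 against 1728), both further interneuron lists, glia, endothelium and choroid plexus. For markers of excitatory neurons (2299 against 2126), meninges and olfactory bulb it was higher. Markers of interneurons in general gave 4 higher and 1 lower of 11 in SD (median 0.45). Of the other lists in SD, activity-dependent genes gave 9 higher and 1 lower of 18, markers of interneurons from the medial ganglionic eminence 4 and 3 of 10, and those from the caudal one 2 and 1 of 10. Meninges gave 5 and 0 of 7 (median 1.52), astrocytes 3 and 0 of 8, oligodendrocytes 2 and 1 of 8, microglia 1 and 1 of 6, endothelium 1 and 2 of 7, and choroid plexus 0 and 1 of 3. The part of any of these in the results for Pdyn, Crh, Pnoc, Cort and Tac1 was not tested.

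Deviations of each library from its group mean show which genes varied together. Over the 33 libraries Slc35d3 (Pearson r = 0.91) and Klhl13 (0.90) were among the closest patterns to Tac1 of 11570 genes. Penk was closest to Kcna4, Gnal and Sv2c (0.85, 0.84 and 0.83), and Pdyn to Cacna2d2, Gpr83 and Rgs8 (0.81, 0.79 and 0.78). Among the members themselves, Tac1 and Pdyn had r = 0.71, Tac1 and Penk 0.68, and Penk and Pdyn 0.58. In the 13 libraries of the Mef2c lines the last 2 values were 0.95 and 0.87, and in the 20 WT libraries 0.40 and 0.35.

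Other pairs of members also varied together. Sst and Cck had r = 0.75, Sst and Npy 0.69, and Cck and Pnoc 0.53, while Sst and Tac1 had -0.12. In the 20 WT libraries Penk had r = 0.48 with Sst and 0.40 with Npy. In the libraries of the Mef2c lines these values were -0.38 and -0.23, and over all libraries 0.15 and 0.04. Sst was closest to Ppdpf, Nfkbib and Pfn1 (0.79, 0.77 and 0.77), Cck to Fkbp1b, Zfp579 and Camk1 (0.87, 0.84 and 0.82), and Pnoc to Prmt2, Sh2b2 and Ptprs (0.84, 0.83 and 0.82). Cort was closest to Hba-a1, Plppr3 and Cygb (0.82, 0.82 and 0.81), Vip to Eif3m, Abcd2 and Ccng1 (0.83, 0.82 and 0.81), and Crh to Cldn10, Prdx4 and Slc35g2 (0.81, 0.74 and 0.71). Sst and Cort, whose peptides share receptors, had r = 0.16. The points of these correlations share dissection, depth and base composition, and they are given as a description.

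**Figure D3:**
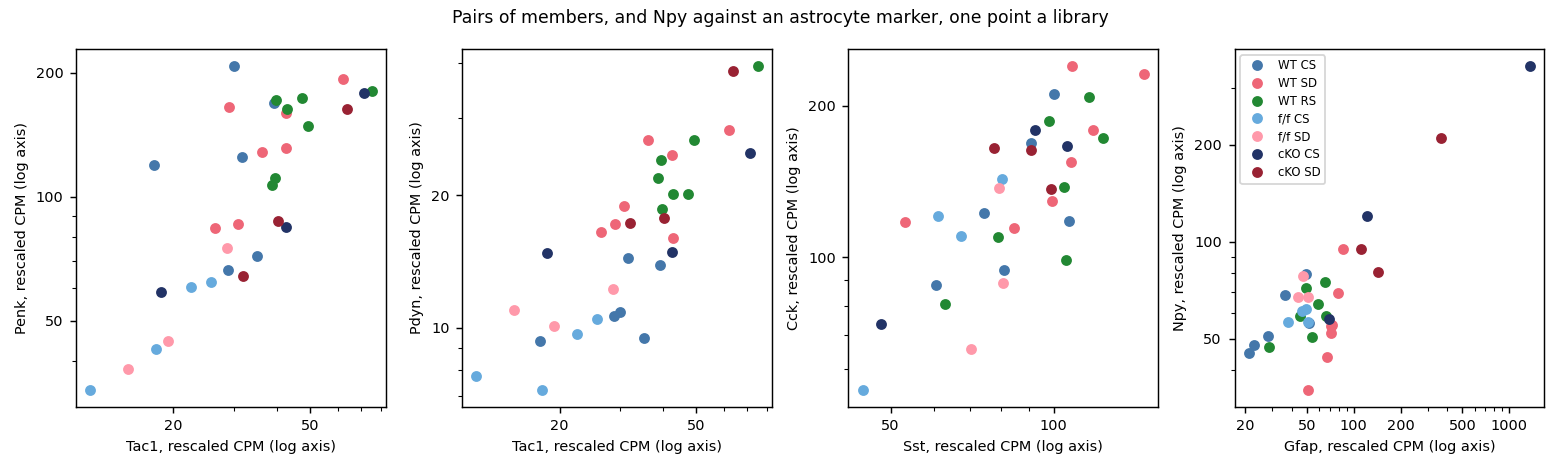
Rescaled CPM (log axes) of Penk and Pdyn against Tac1, of Cck against Sst and of Npy against the astrocyte gene Gfap, with 1 point a library coloured by group. Penk and Pdyn rise with Tac1 (r = 0.68 and 0.71 of deviations from group means) and Cck with Sst (0.75), and in the last panel a Mef2c-cKO CS library at 351 for Npy and a Mef2c-cKO SD library at 210 lie far to the upper right.

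In Mef2c f/f mice 0 of the 10 genes were called from CS to SD by limma, where 0.0403% of 12410 genes were called. The study itself, using DESeq2, reported far more differentially expressed genes between these groups, so the share called depends on the tool. An unadjusted p within 0.05 was reached by 17% of all genes and by 3 members, each with higher values in SD. Crh was at 1.48, 1.87, 2.00 and 2.60 rescaled CPM in CS and at 2.74, 2.90 and 3.52 in SD, so the groups did not overlap, as for 17.4% of all genes (log2 fold change 0.53, limma adjusted p = 0.193). Npy was at 56.2, 56.3, 60.8 and 62.0 in CS and at 67.5, 67.5 and 78.2 in SD, again without overlap (0.27, adjusted p = 0.175). Pdyn was at 7.19, 7.74, 9.68 and 10.5 in CS and at 10.1, 11.0 and 12.2 in SD, with an overlap (0.33, interval 0.02 to 0.65, adjusted p = 0.269). The members' median log2 fold change was 0.24, against -0.0043 for all genes.

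The difference between the SD responses of Mef2c f/f and WT mice was tested as an interaction, and 0 of the 10 genes were called where 15.1% of 13106 genes were. Unadjusted, 0 members and 40% of all genes had a p within 0.05. The response of Pdyn was smaller in Mef2c f/f mice by 0.51 on the log2 scale (interval -1.03 to 0.01, adjusted p = 0.128) and that of Pnoc by 0.59 (interval -1.21 to 0.03, adjusted p = 0.142). With CPM as deposited, the Pdyn difference of -0.76 was called (adjusted p = 0.0482). The listed genes sum to a mean of 959825 CPM in WT CS and 976768 in WT SD, and to 1000000 CPM in the Mef2c lines. Log2 fold changes of this interaction were correlated with transcript GC content (Spearman rho -0.756 across genes). WT libraries were also deeper, with a median of 115615605 reads in WT SD against 47999305 in Mef2c f/f SD. The part of depth in these differences was not tested.

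In Mef2c-cKO mice 0 of the 10 genes were called from CS to SD by limma, with 0.0234% of 12810 genes called. Cort was the 1 member among the 3.05% of genes with an unadjusted p within 0.05. Cort was at 0.541, 1.54 and 2.60 rescaled CPM in CS and at 2.03, 4.23 and 4.27 in SD, an overlap of 1 library (log2 fold change 1.04, interval 0.01 to 2.07, adjusted p = 0.998). The interval of Pdyn was -0.45 to 1.17 and that of Npy -1.74 to 1.34. The first of these holds the change of Pdyn in WT mice, 0.85. The interval of Pnoc, -0.62 to 0.38, does not hold its WT change of 0.56 (interval 0.23 to 0.89). Its Mef2c f/f interval, -0.60 to 0.55, does not hold 0.56 either, and WT and Mef2c-cKO were not compared directly. The interaction of SD with genotype between the Mef2c lines also called 0 members by limma, where 0.00778% of 12860 genes were called. An unadjusted p of at most 0.05 was reached by 0 members, against 7.81% of all genes. For Pdyn this difference was 0.02 (interval -0.79 to 0.84).

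**Figure D4:**
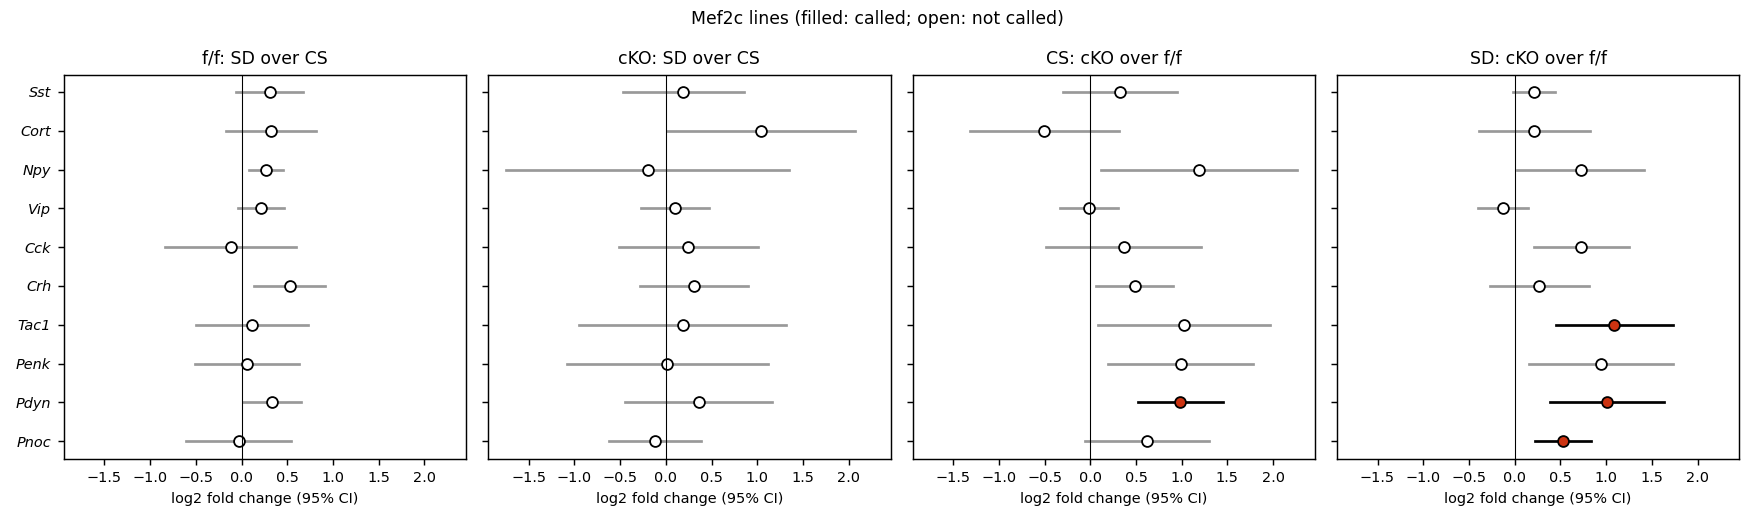
Log2 fold changes of the 10 genes with 95% confidence intervals in the Mef2c lines, filled red where the gene was called; panels are SD over CS in Mef2c f/f, SD over CS in Mef2c-cKO, and Mef2c-cKO over Mef2c f/f in CS and in SD. Called are Pdyn in CS and Tac1, Pdyn and Pnoc in SD, and Npy has the widest interval in the second and the third panel.

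The knockout libraries held more Pdyn than the floxed ones in both sleep states, and in SD also more Tac1 and Pnoc. In CS, Pdyn was the 1 member called, where 7.67% of 12681 genes were called and 3.17% called higher. It was at 7.19, 7.74, 9.68 and 10.5 rescaled CPM in Mef2c f/f and at 14.8, 14.9 and 25.0 in Mef2c-cKO. The groups did not overlap, as for 26.9% of all genes. The means of 8.77 ± 1.56 (± standard deviation, n = 4) and 18.2 ± 5.89 (n = 3) gave a log2 fold change of 0.99 (standard error 0.21, limma adjusted p = 0.0268). The members' median log2 fold change was 0.55, against 0.03 for all genes.

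Tac1 and Penk had log2 fold changes as large as that of Pdyn in CS, 1.02 and 0.99, but wide spread, with limma adjusted p of 0.151 and 0.108. Tac1 was at 18.4, 42.4 and 71.5 rescaled CPM in Mef2c-cKO and Penk at 58.8, 84.6 and 179, in each case with the lowest value in replicate 8 and the highest in replicate 5. Crh was at 2.78, 3.01 and 3.05 in Mef2c-cKO CS, above all 4 Mef2c f/f values, and was not called (0.49, adjusted p = 0.130). The call of Pdyn was lost without Mef2c-cKO replicate 5 (0.74, adjusted p = 0.0507) or 7 (1.11, 0.0617) and without Mef2c f/f replicate 2 (0.90, 0.0847) or 3 (0.93, 0.0636). Npy was called without replicate 5 (1.80, adjusted p = 0.0258), and Tac1 (1.54, 0.0309) and Penk (1.34, 0.0485) joined Pdyn without replicate 8.

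In SD, 3 members were called, all higher in Mef2c-cKO, where 15.1% of 12774 genes were called and 9.1% called higher. Tac1 was at 14.8, 19.3 and 28.6 rescaled CPM in Mef2c f/f and at 31.9, 40.2 and 63.8 in Mef2c-cKO (log2 fold change 1.09, standard error 0.28, limma adjusted p = 0.0329). Pdyn was at 10.1, 11.0 and 12.2 against 17.3, 17.8 and 38.4 (1.01, standard error 0.27, adjusted p = 0.0376). Pnoc was at 2.44, 2.74 and 3.10 against 3.80, 4.12 and 4.70 (0.53, standard error 0.13, adjusted p = 0.0304). None of these 3 genes overlapped between the groups, which 40.3% of all genes also did not. The members' median log2 fold change was 0.62, against 0.01 for all genes.

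Cck missed the threshold in SD (0.73, limma adjusted p = 0.0592), as did Penk (0.94, 0.0935) and Npy (0.72, 0.134). Vip had -0.13 with an interval of -0.41 to 0.15, and Sst 0.21 with an interval of -0.01 to 0.44. A single member stayed called in each of 4 alternatives, Tac1 after quantile normalization and after the GC and length correction, Pnoc with no filter, and Pdyn in a joint fit. The number of members called was 0 without Mef2c f/f replicate 1 or 3, 1 (Pdyn) without Mef2c-cKO replicate 7, 2 (Tac1 and Cck) without Mef2c f/f replicate 2, and 6 without Mef2c-cKO replicate 6, when Npy (0.30, adjusted p = 0.0346), Cck and Crh were added. Over these fits the log2 fold change was 0.82 to 1.34 for Tac1, 0.64 to 1.21 for Pdyn and 0.46 to 0.60 for Pnoc.

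Markers of neighbouring brain regions differed between these genotypes as well. All 4 olfactory bulb markers tested in SD were called higher in Mef2c-cKO (median log2 fold change 3.20), and their summed level was 31.9 to 73.2 rescaled CPM against 2.69 to 4.64 in Mef2c f/f. In CS 0 of 4 were called, with sums of 30.4 to 71.5 against 3.89 to 50.8. Of 13 striatal markers in SD, 2 were higher and 0 lower (median 0.69), and their summed level was 758 to 1173 in Mef2c-cKO and 687 to 1092 in Mef2c f/f. These sums overlapped, and by gene 12 of the 13 markers had a positive log2 fold change. General interneuron markers gave 9 higher and 0 lower of 11, and excitatory markers 0 higher and 5 lower of 10. Markers of interneurons from the medial ganglionic eminence gave 2 higher and 6 lower of 10 (median -0.35), and those from the caudal one 6 higher and 1 lower of 10 (0.56). Choroid plexus gave 3 higher and 0 lower of 4, and microglia 4 and 0 of 6. The part of these in the results for the members was not tested.

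Npy stood apart in 2 Mef2c-cKO libraries. It was at 57.5, 121 and 351 rescaled CPM in CS and at 80.7, 94.7 and 210 in SD, and the high values belong to CS replicate 8 and SD replicate 6. The 27 WT and Mef2c f/f libraries lay between 34.7 and 94.7. From Mef2c f/f to Mef2c-cKO the log2 fold change of Npy was 1.19 in CS (interval 0.12 to 2.26, limma adjusted p = 0.143) and 0.72 in SD (interval 0.03 to 1.41), where the groups did not overlap, and it was called in neither.

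The genes closest to Npy over the 33 libraries were Gfap, an intermediate filament of astrocytes (r = 0.87), Tac2, the neurokinin B precursor (0.87), and Blnk, an adaptor of immune cells (0.85). In the 20 WT libraries these values were lower, at 0.67, 0.75 and 0.56. In the 13 libraries of the Mef2c lines, which hold both libraries with high Npy, they were 0.95, 0.95 and 0.96. Gfap was at 1368 rescaled CPM in CS replicate 8 and at 364 in SD replicate 6, against 68.9 to 143 in the other 4 Mef2c-cKO libraries and 21.1 to 84.7 in the 27 others. Tac2 was at 15.0 and 10.5 in the same pair, against 3.75 to 5.34 in the other Mef2c-cKO libraries and 1.41 to 4.94 in the 27 others. In SD replicate 6 the activity-dependent genes Bdnf and Nptx2 were at 151 and 145, against at most 35.4 and 27.3 in the other Mef2c-cKO libraries apart from CS replicate 8, a comparison chosen after these values were seen. That library also had the highest Pdyn of its group, 38.4, while Pdyn in CS replicate 8 was the lowest of its group at 14.8. With both libraries left out, an alternative chosen after seeing the data, 0 members were called from CS to SD in Mef2c-cKO and in the interaction between the Mef2c lines. The part of what these genes mark in the level of Npy was not tested.

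Receptors of these peptides were taken from a list of 24 genes. From WT CS to SD, 4 were called higher and 1 lower of 18 tested. The somatostatin and cortistatin receptors Sstr1 (log2 fold change 0.68) and Sstr4 (0.51), the receptor Adcyap1r1 of a VIP-related peptide (0.63) and the delta opioid receptor Oprd1 (0.35), which binds enkephalins, were higher, and the neuropeptide Y receptor Npy1r was lower (-0.44). From CS to RS 0 of 18 were called. Their median log2 fold change in SD was 0.17, against 0.04 for all genes.

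Between the Mef2c lines in SD, 8 receptor genes were higher and 2 lower in Mef2c-cKO of 19 tested, where 15.1% of all genes were called. Vipr2, a receptor of VIP, had means of 0.353 and 8.80 rescaled CPM (log2 fold change 3.38) and Tacr1, the receptor of substance P, of 2.51 and 9.31 (1.70). Crhbp, which binds and holds the Crh peptide (0.90), Npy2r (0.80), Adcyap1r1 (0.48), Sstr4 (0.44), Sstr1 (0.44) and Sstr3 (0.40) were also higher. The cholecystokinin receptor Cckbr (-0.64) and the Crh receptor Crhr1 (-0.62) were lower. In CS, Npy2r was higher (1.33) and Cckbr (-0.73) and Crhr1 (-0.91) lower of 18 tested. Markers of the olfactory bulb were higher in Mef2c-cKO SD as well. The part of the region and cell type markers in the results for receptors, processing genes and further peptides was not tested.

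Genes that process, pack and release peptides gave 4 higher and 8 lower of 23 in WT SD over CS (list median -0.21 on the log2 scale). The proprotein convertase inhibitor Pcsk1n (2.95) and the granule protein precursor Vgf (1.70) had the largest rises, followed by Furin (0.77). Cadps2 (-0.90), Pcsk2 (-0.66), Cadps (-0.59), Pcsk5 (-0.58) and Scg3 (-0.49) fell, among them the convertase PCSK2 that trims many peptide precursors and the vesicle priming factors CADPS and CADPS2. From CS to RS 4 were higher and 3 lower, with Pcsk1n at 2.34 and Vgf at 1.59. Pcsk1n was at 4.18 to 86.1 rescaled CPM in CS and 75.1 to 288 in SD. In the interaction of Mef2c f/f with WT, 6 of 24 were called with a positive and 2 with a negative term, with Pcsk1n at -3.02. A positive term means a log2 fold change less negative or more positive in Mef2c f/f than in WT, and not a larger response. From CS to SD in Mef2c f/f, 0 of the 24 were called and the list median was 0.10. Log2 fold changes of this interaction were also correlated with transcript GC content (Spearman rho -0.756 across genes). Values after the GC and length correction are given here for the members only, so the dependence of these processing genes on base composition was not tested.

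From Mef2c f/f to Mef2c-cKO the processing genes Scg2 (0.79) and Cpe (0.51) were higher and Pcsk2 (-0.60) and Cadps2 (-0.48) lower in CS, of 24 tested. In SD, Scg2 (0.84), Pcsk5 (0.62) and Cpe (0.31) were higher and Pcsk2 (-0.48) and Scg3 (-0.36) lower. A list of 30 further peptide genes, of which 10 to 13 passed the filter in each comparison, gave 2 higher and 1 lower from WT CS to SD, with Cartpt at 1.15, Nts at 0.51 and Nucb2 at -0.58. From CS to RS, Cartpt (1.16) and Nppc (0.47) were higher. In Mef2c-cKO, Nts was higher in CS (2.21), and Trh (2.80), Nts (1.71) and Nmb (1.18) were higher in SD. In WT SD to RS, in CS to SD of either Mef2c line and in the interaction between those lines, 0 genes of these 3 lists were called by limma.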

How the data were processed

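Frontal cortex RNA of 33 mice in 7 groups was made into strand-keeping polyadenylated libraries. Per the study's methods, reads were trimmed, mapped with STAR (mm10) and tallied by HTSeq where the mapping was unique, and the authors deposited CPM values from edgeR. The annotation release is not given in the sources used here. Dividing each value by the smallest one above 0 in its library gave whole reads (within 0.01) for 100% of 711645 values. Each library was rescaled by its median ratio to the geometric mean of 11570 genes (CPM at or above 1 throughout), 0.5 was added, and log2 values were tested with limma 3.58.1 in R 4.3.3, using the compared groups alone. Tested genes reached a CPM of 1 in each replicate of either compared group, and p-values were adjusted over all genes tested (Benjamini-Hochberg). Since the labels do not say how replicates were drawn, p-values measure the spread between these libraries.

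The count tests on the recovered reads, edgeR 4.0.16 (quasi-likelihood) and DESeq2 1.42.0, called 5701 and 6048 genes from WT CS to SD. Further fits used quantile normalization, CPM as deposited, a pseudocount of 0.1 or 1, a CPM of at least 5 everywhere or no filter, a GC content and length correction, a joint fit, no fold threshold, the replicate number as a block and leaving out each library. The limma script was tested on simulated data. Positions, lengths and GC content came from GENCODE M21 and promoters from RefSeq (GRCm38.p6). Named genes were the 10 members, called genes of 3 lists (receptors, processing, other peptides; at most 8 each by size of change), the 3 closest genes to each member, Mef2c, and marker lists of cell types and regions. Members and lists were chosen with earlier results of these data known. A gene that these rules would name is not reported here.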

Additional observations from a re-analysis of the deposited data

Results flagged for a closer look

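Among WT RS libraries, replicate 4 stood apart from the other 6 for Tac1 and Pdyn by Dixon's test. Tac1 was at 75.5 rescaled CPM there, against 38.7 to 49.3 in the others, and Pdyn was at 39.5, against 18.6 to 26.8. Without this library the log2 fold change from CS to RS was 0.52 for Tac1 (limma adjusted p = 0.0728) and 0.92 for Pdyn, which was then the only member called. In all, 40 combinations of gene and group were examined and 2 were found, where chance gives about 1 in 20. Groups of 3, which include both Mef2c-cKO groups, were not examined.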

How the results depend on the processing

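Of 263 refits of the 12 called values, 262 kept the direction and 199 the call; the exception in direction was Cort from WT CS to SD after the GC content and length correction, at -0.034. Of the 78 values not called, 44 changed sign in 1 or more refits. From WT CS to SD, 4 members were called; the count was 7 with CPM as deposited and 1 of 7 tested with a CPM of at least 5 everywhere, a filter that Cort, Crh and Pnoc did not pass. From CS to RS it went from 4 to 2 with quantile normalization, 1 with no filter, 2 with a CPM of at least 5 and 2 after the GC content and length correction. From Mef2c f/f to Mef2c-cKO in SD it went from 3 to 1 with quantile normalization, 1 with no filter, 1 after the GC content and length correction and 1 in a joint fit. The interaction of Mef2c f/f with WT went from 0 to 1 with CPM as deposited. Leaving out 1 library gave 4 to 5 members from CS to SD, 0 to 5 from CS to RS, 0 to 3 between the Mef2c lines in CS and 0 to 6 in SD. The cause of these moves was not tested. With 3 or 4 libraries a group, intervals for the Mef2c lines reach past 1 log2 unit for all members but Sst, Vip and Crh, and Cort rests on 22 to 542 reads.

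Same-numbered libraries did not all deviate together: over 21 pairs r was -0.73 to 0.66, 12 were over 0.1, and in 5 both libraries correlated best with their own number. With the replicate number as a block, 1 member (Pdyn) was called in SD over CS and 5 in RS over CS, and 0 in the other comparisons that share numbers. Over all genes the block moved the calls from 5826 to 287 and from 2232 to 4279. No block could be fitted between Mef2c f/f and Mef2c-cKO within a sleep state, which share no numbers.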
